A study of Mus musculus with 8 samples.

Results

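Transcripts of the adult hemoglobin genes were present at a low level in 4 pools of bone marrow progenitors and at a far higher level in the other 4. The genes described here were the 4 adult globins Hbb-bs, Hbb-bt, Hba-a1 and Hba-a2, with Alas2 and Slc4a1, which is 6 of the 27998 genes in the count table. All were chosen because their counts differed between pools 1 to 4 and pools 5 to 8. That difference is therefore given as a description, with no test, and the question taken up is where in the pools the transcripts lay: in erythroid cells, or spread over cells of every kind.

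Hemoglobin is assembled from α-globin and β-globin chains and heme, and its messages come to dominate the transcriptome of erythroblasts late in their maturation. Hbb-bs and Hbb-bt encode the adult β chains of the haplotype that C57BL/6 mice carry, and Hba-a1 and Hba-a2 encode the adult α chain. Alas2 encodes the erythroid form of the first enzyme of heme synthesis, and Slc4a1 encodes band 3, the anion exchanger of the red cell membrane. Because erythroblasts and reticulocytes hold so much globin message, broken cells in a marrow suspension can release it into the fluid from which droplets are formed, where it is counted in cells of any type.

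Female B6 mice, 3 to 4 months old, were either kept in a specific-pathogen-free facility (SPF) or co-housed for 1 month in a conventional facility (CVT), and bone marrow KL cells were sorted and profiled as single cells with 10x 3′ v2 chemistry. KL cells are those that carry c-Kit (CD117) and lack the lineage antigens CD3, CD4, CD8, CD45R, CD11b, GR1 and TER119, the last of which marks maturing erythroblasts. Each pool joined marrow of 2 or 3 mice, with 4 pools and 10 mice in each group by the labels, and no other treatment or allele was named. Pools 1 and 2 were SPF, pools 3 and 4 CVT, pools 5 and 6 CVT and pools 7 and 8 SPF, so each housing group stood in both pool sets, and the labels give no difference in handling between mice 1 to 10 and mice 11 to 20.

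The table held 29891 cells, 1888 to 4845 in a pool, with 19041749 to 59812346 UMIs (unique molecular identifiers, each standing for 1 captured transcript) in a pool and a median of 7530 to 12772 UMIs per cell. A Kit UMI was found in 48.9% to 51.4% of the cells of pools 1 to 4 and in 49.5% to 52.6% of those of pools 5 to 8. A marker of a gated lineage was not absent. Itgam, which encodes CD11b, had a UMI in 6.73% to 10.96% of cells in pools 1 to 4 and in 9.79% to 15.6% in pools 5 to 8. Shared barcodes were few: 522 barcodes occurred in more than 1 pool, in 1048 cells or 3.51% of all. Doublet calling by Scrublet did not work here, since it marked only 92 cells, 0.308% of all, and no doublet was removed.

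The stretches from which these genes are read are shown because the members stood high in the same pools and because the copies of each globin are nearly alike, which limits how surely a 3′ read can be given to 1 copy. In GRCm38 with GENCODE M21, Hbb-bs lies at chr7:103826534-103828096 and Hbb-bt at chr7:103812524-103813996, both on the minus strand, Hba-a1 at chr11:32283511-32284465 and Hba-a2 at chr11:32296489-32297298 on the plus strand, each with 3 exons. Alas2 lies at chrX:150547375-150570638 on the plus strand with 11 exons, and Slc4a1 at chr11:102348824-102366203 on the minus strand with 20 exons. A promoter was found in RefSeq for 5 of the 6 members. The stretches of 110 bases directly before the RefSeq start (GRCm38.p6), each 5′ to 3′ on the gene's own strand, lie at chr7:103813924-103814033 for Hbb-bt, chr7:103827929-103828038 for Hbb-bs, chr11:32296382-32296491 for Hba-a2 and chrX:150547307-150547416 for Alas2. GENCODE starts each of these genes upstream of the RefSeq start, so that the stretches overlap its gene models, wholly for Hbb-bs and Hba-a1 and in part for the others. Capitals mark matches on either strand to the Klf1-type box, spelled CACCC, the promoter box spelled CCAAT, the usual core of TATA boxes, spelled ATATAA, and the site of GATA factors, spelled AGATAA.
Hbb-bt: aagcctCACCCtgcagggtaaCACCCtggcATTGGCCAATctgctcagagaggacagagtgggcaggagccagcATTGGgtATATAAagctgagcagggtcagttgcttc
Hbb-bs: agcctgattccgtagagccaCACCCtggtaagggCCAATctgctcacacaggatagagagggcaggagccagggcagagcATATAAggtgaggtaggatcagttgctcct
Hba-a2: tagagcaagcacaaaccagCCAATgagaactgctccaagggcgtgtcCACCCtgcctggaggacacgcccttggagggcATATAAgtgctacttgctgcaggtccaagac
Alas2: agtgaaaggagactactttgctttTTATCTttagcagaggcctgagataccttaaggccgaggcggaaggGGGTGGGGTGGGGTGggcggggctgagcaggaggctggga

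All 4 globin stretches held a CACCC box, a CCAAT box and a TATA core. Hbb-bt held 2 CACCC and 3 CCAAT matches, while Hbb-bs, Hba-a1 and Hba-a2 held 1 of each. Alas2 held 3 CACCC matches and 1 GATA match, all on the other strand, and neither of the other motifs. Over 32851 RefSeq promoters of the same length, 29.6% held the Klf1-type box, 20.2% the CCAAT box, 4.09% the TATA core and 3.99% the GATA site, so the first pair is common, and a match says only that the letters are there. The Hbb-bs and Hbb-bt stretches matched at 83 of 110 aligned bases (75.5%), and those of Hba-a1 and Hba-a2 at 107 of 107, which is why Hba-a1 is not printed.

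The transcripts were more alike than the β promoters. Hbb-bs and Hbb-bt transcripts matched at 582 of 630 aligned bases (92.4%), and those of Hba-a1 and Hba-a2 at 537 of 538 (99.8%). Of the 90-base windows in the last 300 bases of the Hba-a1 transcript, from which 3′ reads mostly come, 57.3% occurred in Hba-a2, against 24.6% of those of Hbb-bs in Hbb-bt. The division of α-globin reads between Hba-a1 and Hba-a2, and to a lesser degree of β-globin reads between Hbb-bs and Hbb-bt, is thus uncertain, and the sum of the 4 is the firmer value.

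Each globin stood far higher in pools 5 to 8. Hbb-bs was at 40.0, 40.0, 53.2 and 58.4 CPM (counts per 1000000 UMIs of a pool) in pools 1 to 4, and at 645, 1503, 1838 and 1153 CPM in pools 5 to 8. Hbb-bt was at 29.9, 35.9, 38.7 and 33.6 CPM, and at 255, 520, 666 and 380 CPM. The 2 pool sets did not overlap for either β-globin, and pool 5 was the lowest and pool 7 the highest of the second set for both.

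The α-globins had the same order of pools. Hba-a1 was at 50.1, 48.5, 64.7 and 61.7 CPM in pools 1 to 4 and at 435, 927, 1182 and 673 CPM in pools 5 to 8. Hba-a2 was at 14.3, 14.1, 17.01 and 15.7 CPM, and at 210, 567, 816 and 427 CPM. By the ratio of set means Hba-a2 was 33.1-fold and Hbb-bs 26.8-fold higher in pools 5 to 8, against 14.3-fold for Hba-a1 and 13.2-fold for Hbb-bt, and the lowest pool of the second set was still 6.59-fold to 12.4-fold over the highest of the first.

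The heme enzyme and the anion exchanger were far rarer. Alas2 was at 0.420, 0.208, 0.313 and 0.301 CPM in pools 1 to 4, from 8, 9, 18 and 18 UMIs, and at 2.58, 5.85, 8.02 and 5.75 CPM in pools 5 to 8, from 108, 261, 159 and 287 UMIs. Slc4a1 was at 0.473, 0.370, 0.417 and 0.418 CPM, from 9, 16, 24 and 25 UMIs, and at 3.58, 5.61, 4.95 and 3.89 CPM, from 150, 250, 98 and 194 UMIs. Both were low in all of pools 1 to 4, the ratio of set means was 17.9 for Alas2 and 10.7 for Slc4a1, and in a pooled count of this kind more erythroblasts and more message per erythroblast cannot be told apart.

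**Figure D1:**
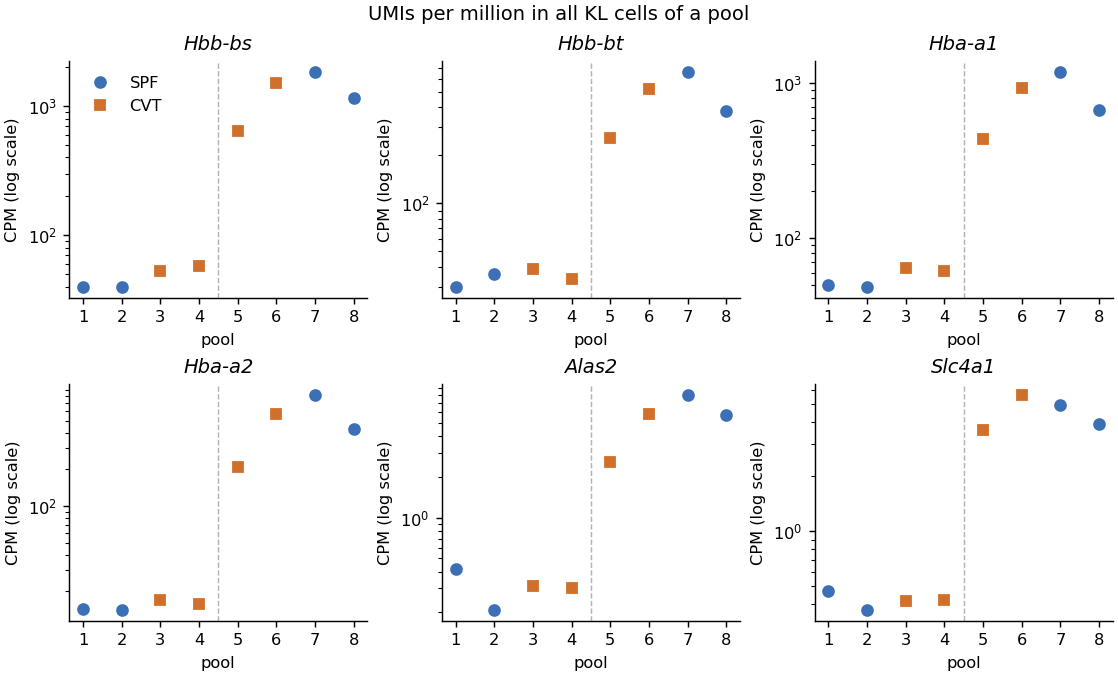
CPM of each member (log scale) in all KL cells of pools 1 to 8, 1 point per pool, with SPF pools as circles, CVT pools as squares and a dashed line between the pool sets. In each panel pools 1 to 4 lie together, for Hbb-bs at 40.0 to 58.4 CPM, below pools 5 to 8 at 645 to 1838 CPM, and SPF and CVT pools stand in both clouds.

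Summed over the 4 globins, 0.0134% to 0.0174% of all UMIs in pools 1 to 4 were globin and 0.155% to 0.450% in pools 5 to 8. The cells were then counted by their number of globin UMIs. These numbers add up to the pool's total and are not independent of it. Cells with no globin UMI were 77.5%, 78.5%, 74.8% and 68.5% of pools 1 to 4, and 17.4%, 10.1%, 14.3% and 8.38% of pools 5 to 8. Cells with 1 to 9 globin UMIs were 19.8% to 30.1% in the first set and 80.2% to 85.1% in the second, so that a small globin count was the rule in pools 5 to 8 and the exception in pools 1 to 4.

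At the other end stood a few cells filled with globin. Cells with 100 or more globin UMIs numbered 5, 6, 11 and 11 in pools 1 to 4 and 32, 51, 21 and 41 in pools 5 to 8. They held 56.4% to 68.6% of a pool's globin UMIs in the first set and 83.9% to 94.0% in the second, while the many cells with 1 to 9 held 18.3% to 24.1% and 5.26% to 14.04%. The richest cell of each pool held 398, 1071, 2175 and 1790 globin UMIs in pools 1 to 4, which is 2.98% to 16.7% of that cell's UMIs. In pools 5 to 8 it held 9157, 20196, 11694 and 12322, or 85.8% to 92.5%, and cells made up so largely of globin message were seen in the second set alone.

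**Figure D2:**
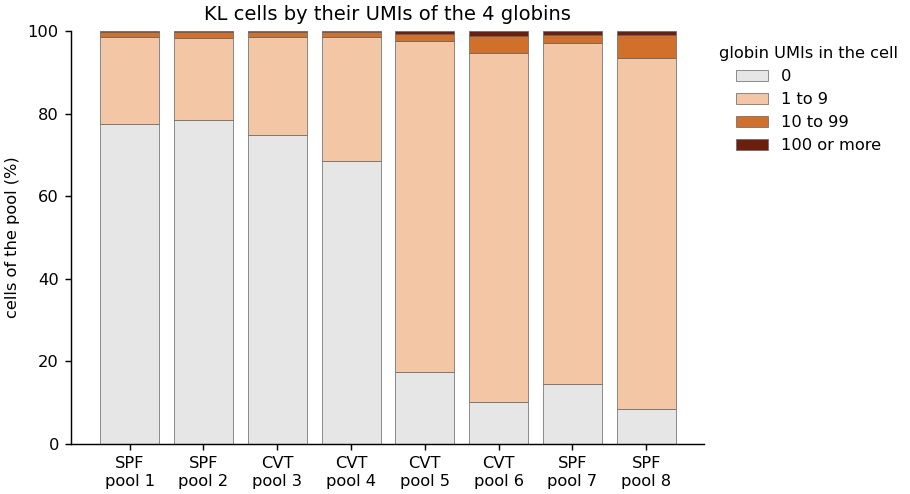
Share of the KL cells of each pool (%) by their number of UMIs of the 4 globins, stacked as 0, 1 to 9, 10 to 99, and 100 or more. Cells with 0 make up 68.5% to 78.5% of pools 1 to 4 and 8.38% to 17.4% of pools 5 to 8, and the band of 100 or more is thin in every pool.

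Cells were grouped into 34 clusters with the globins and other members left out of the clustering, so that these transcripts could not place a cell. The 8 clusters with erythroid markers held 8765 cells and were of 3 kinds. An early kind of 5724 cells carried Car1, Aqp1 or Mfsd2b, and 1 of its clusters was led by interferon-response genes. Its largest cluster, of 3030 cells, was led by Pdzph1 and Clec4d, with Apoe and Gata2 also among its leading genes. That cluster had 5 erythroid markers, Car1 and Ermap not among them, so its erythroid name is the least sure by its leading genes. A kind of 2912 cells in 3 clusters had Ermap and Sphk1 among its leading genes, although Mt2 led 2 of these clusters and Fam132a the other, and a single late cluster of 129 cells had Mgst3, Cldn13, Rhd and Trim10 among its leading genes. The remaining clusters were called LTHSC-like (long-term stem cells), MPP-like and LMPP-like (multipotent and lymphoid-primed progenitors), GMP-like (granulocyte and monocyte progenitors), monocyte-like, late granulocyte-like, megakaryocyte-like, B-like, T and NK-like and dendritic-like, with 2662 cells unnamed. Cells outside the erythroid lineage, with megakaryocyte-like cells also set aside, numbered 18356, of which 8429 were in pools 1 to 4 and 9927 in pools 5 to 8.

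The late erythroid-like cluster held most globin message in 7 of 8 pools, all but pool 1. It had 3, 5, 8 and 9 cells in pools 1 to 4, or 0.130% to 0.216% of a pool, and 20, 37, 17 and 30 in pools 5 to 8, or 0.461% to 0.881%. These few cells held 43.3% to 65.0% of the globin UMIs of pools 1 to 4 and 66.0% to 85.2% of those of pools 5 to 8. In the first set most of the rest lay in the Ermap and Sphk1 clusters, at 22.6% to 38.8%, against 0.58% to 4.68% in the second. Cells outside the erythroid lineage held 7.61% to 14.7% and 9.96% to 23.9%.

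Most Slc4a1 UMIs lay in the late cluster in every pool, and most Alas2 UMIs did so in pools 5 to 8. Of Alas2 UMIs, 25% to 77.8% were in the late cluster in pools 1 to 4, where a pool had 8 to 18 in all, and 72.2% to 91.2% in pools 5 to 8. Of Slc4a1 UMIs, 55.6% to 95.8% and 76.0% to 85.7% were there. Counted by cell, 193 cells of pools 5 to 8 carried Alas2, 96 of them late, 22 other erythroid-like and 70 outside the lineage, and 199 carried Slc4a1, 102 late, 20 other erythroid-like and 69 outside. In pools 1 to 4 the 40 cells with Alas2 were 18 late, 17 other erythroid-like and 4 outside, and the 26 with Slc4a1 were 16, 5 and 4, the last single cell of each being megakaryocyte-like. Outside the lineage both genes were thus met in few cells, 4 of 8429 for each in the first set and 70 and 69 of 9927 in the second.

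The late cells of the pool sets were not in the same state. Their median globin count was 374, 478, 532.5 and 527 UMIs per cell in pools 1 to 4 and 1470, 2305, 2348 and 2183 in pools 5 to 8. Their other message went the opposite way, with a median of 12593 to 25421 UMIs per cell that were not globin in the first set and 5334 to 10589 in the second. Kit was nearly absent from late cells, at a mean of 0 to 0.4 UMIs per cell over the 8 pools, although the sort was for c-Kit.

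Genes of the red cell program were set against this non-globin total. Per 10000 non-globin UMIs of the late cluster, Car1, an early erythroid carbonic anhydrase, was at 16.3 to 21.2 in pools 1 to 4 and at 15.2 to 21.7 in pools 5 to 8, which overlap. Bpgm, the red cell enzyme that makes 2,3-bisphosphoglycerate, was at 0.219 to 0.442 and 1.49 to 6.77. Slc25a37, the mitochondrial iron importer mitoferrin, was at 0.569 to 1.80 and 2.57 to 4.72. Klf1, an erythroid transcription factor, lay the other way, at 4.80 to 6.34 and 3.98 to 4.76. The ranges overlapped for Hemgn (4.59 to 6.30 and 4.85 to 9.04), Rhd (4.59 to 8.05 and 7.26 to 10.9), Cpox (4.81 to 8.77 and 6.94 to 9.56) and Ermap (2.36 to 4.16 and 2.19 to 3.87). Alas2 was at 0.437 to 0.675 and 3.52 to 9.62 and Slc4a1 at 1.08 to 1.72 and 5.15 to 8.63, so the members of lower abundance also stood higher per late cell and not only in number of cells. Mpo, the myeloperoxidase of myeloid progenitors, was at 0.437 to 1.87 and 2.98 to 5.39, and markers of late granulocytes (12 of 12 listed in the file) summed to 338 to 897 CPM and 986 to 7026 CPM in these cells. Their part in the difference was not tested, the cluster had at most 9 cells a pool in the first set, and its cells were chosen by their own expression, so the values are descriptions.

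Next, the cells with fewer than 100 globin UMIs were examined class by class. Because deep cells show a UMI more often, each cell was thinned to 2759 UMIs, the depth of the shallowest cell, and no cell was lost. In pools 5 to 8 a globin UMI was then found in 48.2% to 59.6% of LMPP-like, 45.2% to 57.9% of GMP-like, 46.5% to 56.5% of monocyte-like, 53.2% to 62.8% of B-like and 50.6% to 61.5% of Ermap and Sphk1 cells. B and monocyte cells should lack globin message, and the Ermap and Sphk1 clusters of these pools lay at their level, although their median depth was 20233 to 26539 UMIs per cell against 12182 to 15320 in monocyte-like cells. For Hba-a1 alone the thinned share was 20.2% to 27.8% in these clusters and 11.96% to 16.4% in monocyte-like cells, which do not overlap. Outside the lineage as a whole, the thinned share was 48.7% to 60.8%, and without thinning its mean over pools 5 to 8 was 88.5%.

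In pools 1 to 4 the classes differed more. The thinned share was 17.9% to 21.2% in the Ermap and Sphk1 clusters, 11.4% to 12.21% in LTHSC-like and 9.23% to 12.18% in MPP-like cells, against 4.05% to 6.20% in monocyte-like cells. It was 5.90% to 10.7% in late granulocyte-like cells, which overlaps the MPP-like range, and 5.71% to 7.50% in early erythroid-like cells. The Ermap and Sphk1 clusters are erythroid, and all 4 of their pools were above every monocyte-like value, as were those of the stem cell classes. Median depth was 22105 to 27950 UMIs in the Ermap and Sphk1 clusters, 5304 to 6026 in LTHSC-like and 10744 to 15484 in monocyte-like cells. Outside the lineage as a whole the share was 6.84% to 8.30%, and 22.7% on average without thinning.

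By level, Hbb-bs was nearly even over classes in pools 5 to 8. Over 8 classes (LTHSC, MPP, LMPP, megakaryocyte, early erythroid, GMP, monocyte and late granulocyte) the highest class was 1.20-fold to 1.43-fold over the lowest within a pool, and the Ermap and Sphk1 clusters were at 0.908 to 1.09 times the median class. Hba-a2 spanned 1.22-fold to 1.41-fold and Hba-a1 1.33-fold to 1.42-fold, with the Ermap and Sphk1 clusters at 1.85 to 2.50 times the median class for Hba-a1. In pools 1 to 4 the same clusters stood at 2.50 to 2.65 times the median class for Hbb-bs. They were not the highest for it in every pool, since in pool 2 late granulocyte-like cells had 20.7 CPM against their 18.9 CPM. For Hba-a1 they stood at 11.1 to 20.3 times the median class, at 72.8 to 97.3 CPM against 1.97 to 14.8 CPM in the 8 classes. The lowest of those class values, in LTHSC-like cells of pool 3, rested on 1 UMI. The α-globin of the Ermap and Sphk1 clusters thus stood out from the other classes in pools 1 to 4 more than in pools 5 to 8.

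**Figure D3:**
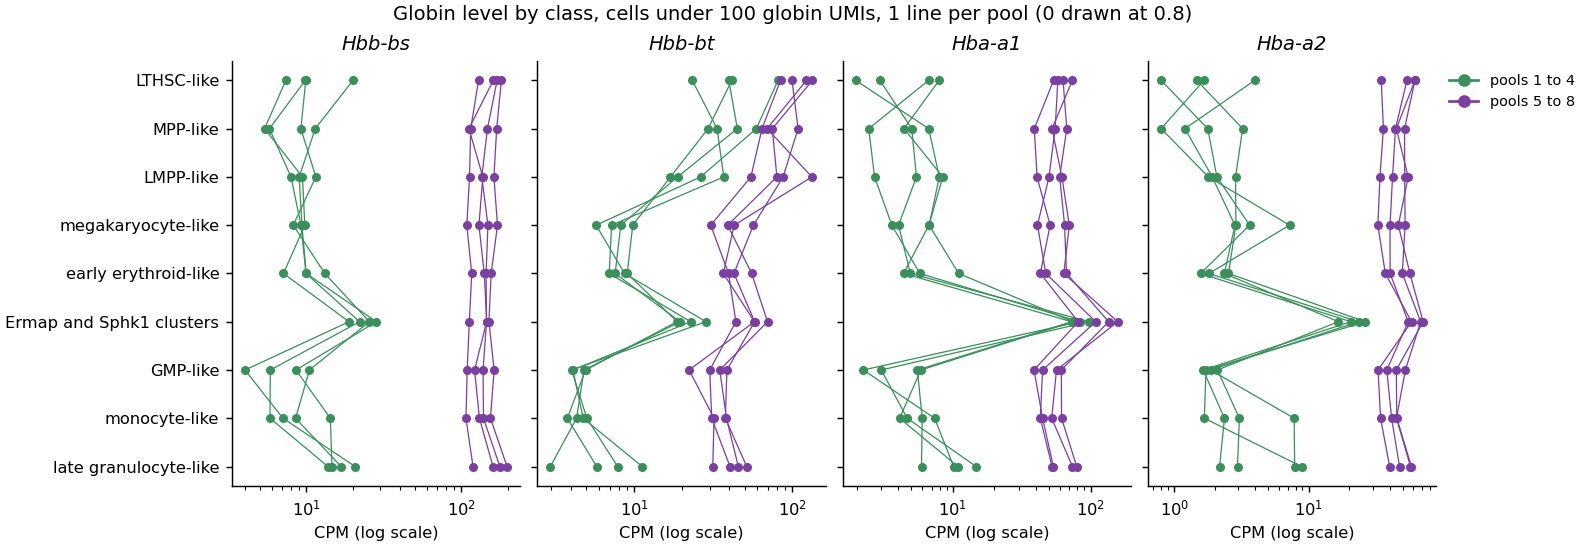
CPM of each globin (log scale) in 9 classes of cells with fewer than 100 globin UMIs, 1 line per pool, with pools 1 to 4 and pools 5 to 8 in 2 colours and values of 0 drawn at the left edge. For Hbb-bs the lines of pools 5 to 8 are nearly vertical at 107 to 197 CPM. Those of pools 1 to 4 bend out at the Ermap and Sphk1 clusters, to 18.9 to 28.3 CPM, and that of pool 2 reaches 20.7 CPM in late granulocyte-like cells. For Hbb-bt all 8 lines are highest in stem and multipotent classes.

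Deeper cells had a higher mean globin count and a lower level per 10000 UMIs. Among cells outside the lineage in pools 5 to 8 the mean globin count was 1.33 to 1.93 UMIs in cells of 2759 to 5000 UMIs and 4.74 to 7.32 in cells of at least 20000, which is 3.22 to 4.28 and 2.05 to 3.10 per 10000 UMIs. In pools 1 to 4 it was 0.132 to 0.404 and 0.323 to 0.549 UMIs in the same bins, which is 0.281 to 0.932 and 0.144 to 0.240 per 10000 UMIs. The general level did not follow the pool's total. In cells outside the lineage under 100 globin UMIs it was 241, 307, 273 and 345 CPM in pools 5 to 8, so that pool 7, with the highest total of 4502 CPM, stood below pools 6 and 8 in it.

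A further 25 cells outside the lineage had 100 or more globin UMIs, and all were in pools 5 to 8. They held 218 to 6368 globin UMIs, a median of 1205, which was 1.48% to 64.4% of their UMIs, and fell in 7 classes, with 10 in the late granulocyte-like clusters. Together they carried 4.37% to 14.3% of a pool's globin UMIs, so leaving them out lowered the mean level outside the lineage in pools 5 to 8 from 7.06 to 2.91 per 10000 UMIs, against 0.305 in pools 1 to 4. Among these cells 18 carried Alas2 and 14 carried Slc4a1. Of all cells with 100 or more, 5 shared a barcode with a cell of another pool, and those other cells held at most 10 globin UMIs. What set these 25 cells apart was not tested.

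The mix of the 4 genes was compared between kinds of cells, as UMIs of each gene per 1000 globin UMIs, summed over pools with exact Poisson intervals (95%) that cover counting error only. In the late cluster of pools 5 to 8 it was 417 Hbb-bs (415 to 419), 149 Hbb-bt (147 to 150), 273 Hba-a1 (271 to 275) and 161 Hba-a2 (160 to 163). In myeloid cells (GMP, monocyte and late granulocyte classes) of these pools under 100 globin UMIs it was 510 (499 to 521), 130 (124 to 136), 200 (192 to 207) and 161 (154 to 167). Myeloid cells thus had a larger part of Hbb-bs and a smaller part of Hba-a1 than the late cells of the same pools, in each of the 4 pools, at 494 to 541 against 397 to 428 for Hbb-bs and 180 to 205 against 267 to 307 for Hba-a1.

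The rare members gave the same kind of comparison. Alas2 was at 1.96 (1.81 to 2.11) per 1000 globin UMIs in late cells of pools 5 to 8 and at 2.22 (1.53 to 3.10) in the myeloid cells, and Slc4a1 at 1.62 (1.49 to 1.76) and 1.82 (1.21 to 2.64). In both cases the intervals overlap, but they cover counting error only and overlap does not show that the ratios were alike. By pool, Alas2 was at 0.554 to 3.02 in the myeloid cells of pools 5 to 8 and at 1.75 to 2.32 in the late cells. Slc4a1 was at 0.939 to 2.72 and at 1.12 to 2.67. In the late cells of pools 1 to 4 Alas2 was at 1.76 (1.19 to 2.52) and Slc4a1 at 3.71 (2.85 to 4.74), the latter above the interval of pools 5 to 8.

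Hbb-bt departed from the other globins in stem and multipotent cells. In LTHSC, MPP and LMPP classes under 100 globin UMIs, Hbb-bt made up 684 (637 to 734) of 1000 globin UMIs in the first pool set and 263 (253 to 273) in the second. In myeloid cells it made up 226 (201 to 252) and 130. As CPM, the stem and multipotent classes were over the myeloid classes by 6.004-fold, 10.2-fold, 5.18-fold and 7.04-fold in pools 1 to 4 and by 1.99-fold, 2.37-fold, 3.76-fold and 2.50-fold in pools 5 to 8. The direction was the same in 8 of 8 pools, and the difference was 19.4 to 43.3 CPM in the first set and 32.1 to 76.9 CPM in the second.

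The other β-globin did not share this. The same ratio for Hbb-bs was 1.02 to 1.16 in the first set and 0.977 to 1.06 in the second, for Hba-a1 0.625 to 1.22 and 0.956 to 1.18, and for Hba-a2 0.200 to 1.22 and 1.01 to 1.10. The 0.200, in pool 1, rested on 1, 0 and 2 Hba-a2 UMIs in LTHSC-like, MPP-like and LMPP-like cells. Within the first set Hbb-bt was at 23.3 to 81.2 CPM in LTHSC-like, 29.3 to 59.2 CPM in MPP-like and 16.97 to 36.9 CPM in LMPP-like cells, and at 4.03 to 4.93 CPM in GMP-like cells. The ratio was above 1 in 8 of 8 pools for Hbb-bt, 7 for Hbb-bs, 6 for Hba-a1 and 5 for Hba-a2. The spread over classes in the first set, as the highest class over the lowest of a pool, was 8.99- to 20.1-fold for Hbb-bt, 2.04- to 5.13-fold for Hbb-bs and 1.93- to 5.58-fold for Hba-a1. Some of these classes held few UMIs, with Hbb-bs at 5 to 12 UMIs and Hba-a1 at 1 to 4 UMIs in LTHSC-like cells of a pool. Counting error widens such ratios, so they cannot be set directly against those of pools 5 to 8. The early erythroid-like clusters of these pools had 6.96 to 9.04 CPM of Hbb-bt, below the stem and multipotent classes.

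**Figure D4:**
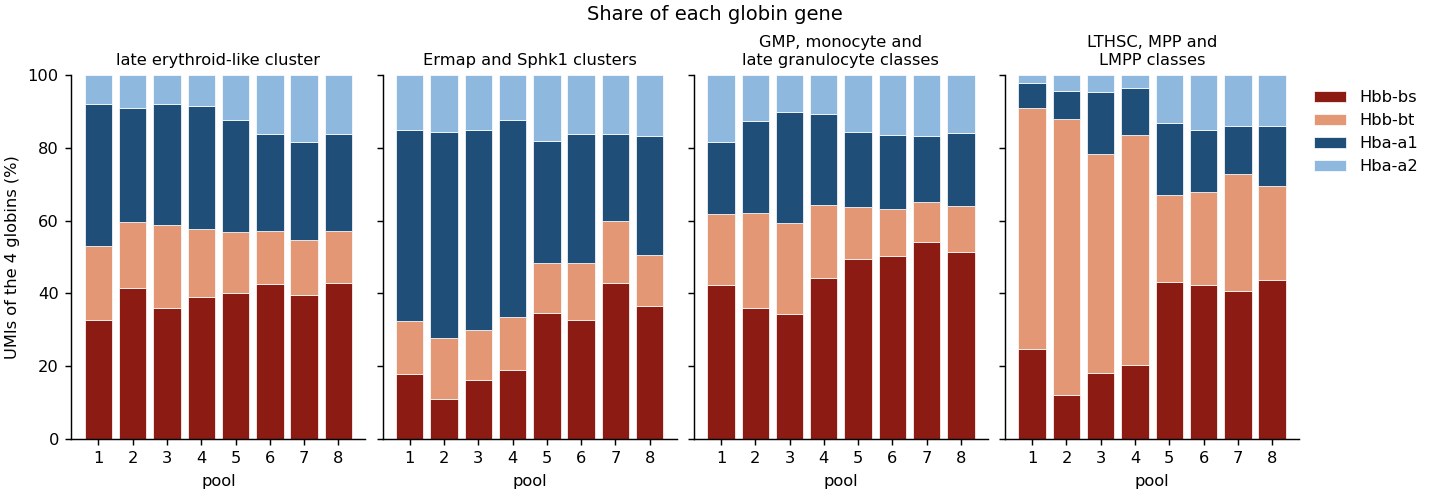
Share of each globin gene among UMIs of the 4 globins (%) in pools 1 to 8, in the late erythroid-like cluster and, for cells under 100 globin UMIs, in the Ermap and Sphk1 clusters, the myeloid classes and the stem and multipotent classes. Hbb-bt fills most of the bar in stem and multipotent classes of pools 1 to 4, and Hba-a1 that of the Ermap and Sphk1 clusters there, while the 4 panels are more alike in pools 5 to 8.

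In the Ermap and Sphk1 clusters under 100 globin UMIs, Hba-a1 made up 549 (530 to 568) of 1000 globin UMIs in pools 1 to 4 and Hbb-bs 161 (151 to 172). In pools 5 to 8 these were 336 (324 to 347) and 350 (339 to 362). These clusters thus held more α-globin for each β-globin UMI in pools 1 to 4, with a ratio of 1.99 to 2.61 against 0.671 to 1.07 in pools 5 to 8.

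Other erythroid genes were read from the whole-table edgeR fit of pools 5 to 8 against pools 1 to 4 with housing as a covariate, in which 19.9% of 13265 genes passed an adjusted p of 0.05 in KL cells, 10.3% higher and 9.57% lower. The median log2 fold change was -0.28 over heme synthesis genes, -0.42 over early erythroid enzymes and 0.0066 over erythroid regulators, beside 0.011 over all genes tested. Of 10 heme synthesis genes tested, 6 fell and 0 rose, led by Cpox (log2 fold change -0.52, SE 0.119), Slc25a38 (-0.40) and Fech (-0.38), the ferrochelatase that inserts iron into the ring. Of 7 early erythroid enzymes and related genes 4 fell, among them Fam132a (-0.54), Car1 (-0.52) and Car2 (-0.48). Of 11 regulators 4 fell and 1 rose, with Epor (-0.55), Klf1 (-0.47) and Gata1 (-0.45) at the lower end. The share of cells that were erythroid-like moved with these, at 31.3% to 35.6% of pools 1 to 4 and 23.6% to 27.4% of pools 5 to 8.

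Genes of the last stages were split. Of 14 reticulocyte and late erythroblast genes, 5 rose and 1 fell, with Ypel4 at 3.02, Tmcc2 at 0.99 and Fbxo7 at -0.37. Of 18 membrane genes 1 rose, Epb42 (0.66), which encodes protein 4.2, a binding partner of band 3, and 6 fell, led by Add2 (-0.72) and Rhd (-0.67). Of 9 iron genes Slc25a37 rose (0.39) and 3 fell, led by Steap3 (-0.61) and Slc11a2 (-0.44). Of 6 further globins only Hbq1b, a θ-globin, had enough counts to test, and it rose (2.13, SE 0.366).

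Within erythroid-like cells alone 0.458% of 11140 genes passed, 0.440% higher and 0.0180% lower, and the early genes were no longer called. Ypel4 (3.11), Tmcc2 (1.68), Xpo7 (0.85), Hbq1b (2.47), Epb42 (1.07) and Slc25a37 (0.77) were the called genes of the lists, all higher, and the heme, regulator and early enzyme lists had 0 called, with medians of -0.07, 0.10 and -0.05 beside 0.01 over all genes. The most abundant genes of those lists were at -0.09 for Tmem14c, -0.10 for Alad, -0.05 for Klf1, -0.08 for Car1 and -0.24 for Car2. In cells outside the lineage 11.4% of 12753 genes passed, 5.72% higher and 5.65% lower. There Ube2l6 (0.48), Fam46c (1.40), Hemgn (0.63) and 5 regulators, including Zfpm1 (0.41), Tal1 (0.36) and Bcl11a (0.27), rose. Cpox (-0.31), Aqp1 (-0.58) and Fbxo7 (-0.41) fell and Epb41 (0.29) rose, while 0 of 9 iron genes passed, with the ferritin genes Ftl1 at -0.05 and Fth1 at -0.02.

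These counts moved with the pool left out. With each pool left out in turn the called genes ranged from 79 (without CVT pool 3) to 4543 (without SPF pool 8) in KL cells, from 28 to 1649 (without SPF pool 8) in erythroid-like cells and from 23 to 3131 (without SPF pool 8) outside the lineage. Heme synthesis genes then ranged from 0 to 8 lower and reticulocyte genes from 2 to 5 higher in KL cells. Membrane genes ranged from 1 to 7 lower, early erythroid enzymes from 0 to 5 lower and regulators from 1 to 4 lower there, and regulators from 0 to 6 higher outside the lineage. Markers of other cell types also moved: in cells outside the lineage late granulocyte markers summed to 9788 to 42648 CPM in pools 1 to 4 and 26597 to 65553 CPM in pools 5 to 8, and B markers (9 of 11 in the file) to 58.7 to 94.7 CPM and 124 to 161 CPM, and their part was not tested.

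Whether housing changed these genes was a comparison the choice of members had not used, and no member was called. With pool set as a covariate, 0.0302% of 13265 genes passed edgeR's quasi-likelihood test in KL cells, 0% of 11140 in erythroid-like cells and 0.0314% of 12753 outside the lineage, and 0 of the 6 members passed in each. By direction, 0.00754% of genes in KL cells and 0.0157% outside the lineage were called higher in CVT pools, and 0.0226% and 0.0157% lower. In KL cells the log2 fold change of CVT over SPF was 0.03 (SE 0.279) for Hbb-bs, -0.12 (SE 0.241) for Hbb-bt, -0.01 (SE 0.260) for Hba-a1 and -0.24 (SE 0.320) for Hba-a2. It was -0.50 (SE 0.304) for Alas2 and 0.11 (SE 0.190) for Slc4a1, and the smallest edgeR adjusted p among the 6 was 0.499. The count of genes with an unadjusted p under 0.05 was 716 higher and 1074 lower, and DESeq2 called 140. Of the other erythroid genes in the lists above, edgeR called 0 for housing in each population. The most abundant of them in KL cells were at 0.24 for Car1, 0.21 for Tspo2, 0.17 for Tmem14c, 0.10 for Fth1 and -0.11 for Lmo2.

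In erythroid-like cells the values were -0.03 (SE 0.306), -0.10 (SE 0.284), -0.11 (SE 0.270), -0.32 (SE 0.350), -0.63 (SE 0.326) and 0.01 (SE 0.213) in the same order, and the smallest edgeR adjusted p was 0.512, for Alas2. At an unadjusted p under 0.05 were 472 genes higher and 643 lower, and DESeq2 called 5. With no filter on low counts, which brought the number called to 250, Hba-a2 and Alas2 passed as lower in CVT pools (edgeR adjusted p = 0.00146 and 0.00789).

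Outside the lineage Hbb-bt was at 14.1 and 21.9 CPM in SPF pools 1 and 2 and at 9.67 and 10.4 CPM in CVT pools 3 and 4, then at 99.2 and 83.3 CPM in CVT pools 5 and 6 and at 127 and 116 CPM in SPF pools 7 and 8. SPF pools were higher within each pool set, without overlap, at a log2 fold change of -0.55 (SE 0.128, edgeR adjusted p = 0.140). These sums mix classes and include cells with 100 or more globin UMIs. Of 1888 and 3845 cells in SPF pools 1 and 2, 96 and 221 were LTHSC-like. In CVT pools 3 and 4, 90 and 79 of 4845 and 4176 were. Under 100 globin UMIs, myeloid Hbb-bt was at 32.3 and 37.6 CPM in pools 5 and 6 and 27.9 and 40.0 CPM in pools 7 and 8. In stem and multipotent classes it was at 64.4 and 89.1 CPM and at 105 and 100 CPM. The part of class mix was not tested. Hba-a2 was at 3.37 and 2.33 CPM in pools 1 and 2, 1.86 and 2.27 CPM in pools 3 and 4, 97.0 and 90.4 CPM in pools 5 and 6 and 162 and 126 CPM in pools 7 and 8, at -0.52 (SE 0.124, edgeR adjusted p = 0.157). Neither passed. With no filter on low counts, under which 662 genes were called, Hbb-bs, Hbb-bt and Hba-a2 passed (edgeR adjusted p = 0.0243, 1.08e-07 and 1.24e-05), and without SPF pool 8 Hba-a2 passed (edgeR adjusted p = 0.0471). A difference between the pool sets in the housing effect was tested as an interaction, in which 0 genes were called by edgeR in each population (at an unadjusted p under 0.05, 517 positive and 691 negative in KL cells, 356 and 347 in erythroid-like cells and 523 and 634 outside) and the smallest edgeR adjusted p of a member over the 3 populations was 0.527.

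**Figure D5:**
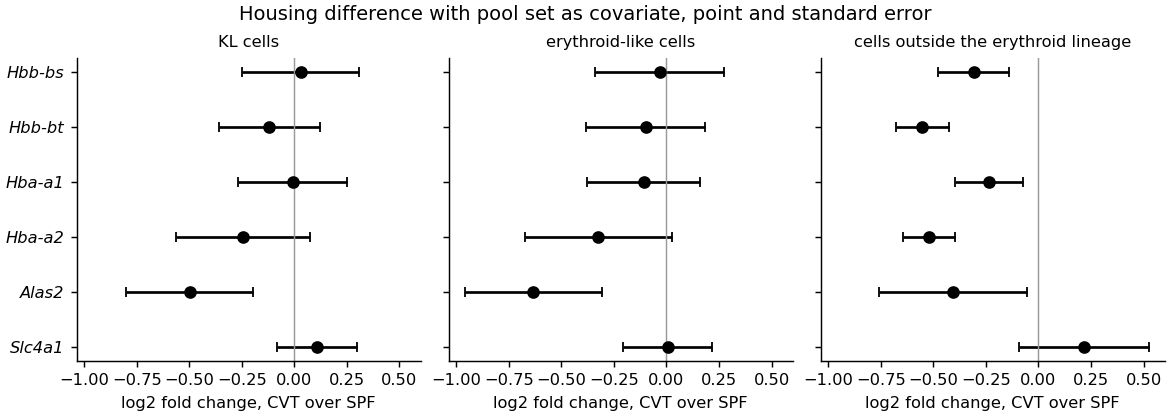
Log2 fold change of CVT over SPF for each member, with pool set as a covariate, in KL cells, erythroid-like cells and cells outside the erythroid lineage, with bars of 1 standard error from edgeR. All points lie between -0.63 and 0.22, and the points farthest from 0 relative to their bars are Hbb-bt and Hba-a2 outside the lineage, at -0.55 and -0.52.

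The 5 measures of where globin lay were compared between 4 CVT and 4 SPF pools by an exact two-sided permutation test, whose smallest possible p is 0.0286, and 0.0556 when labels are exchanged only within pool sets. Erythroid-like cells were 29.7% ± 4.83 (SD, n = 4) of CVT and 29.3% ± 5.37 of SPF pools (exact p = 0.886). They held 86.3% ± 7.60 and 83.8% ± 2.48 of globin UMIs (exact p = 0.543). Outside the lineage globin was at 2.99 ± 3.15 and 4.37 ± 4.69 UMIs per 10000 (exact p = 0.514), and within pool sets at 0.265 in CVT against 0.344 in SPF pools of the first set and 5.72 against 8.41 in the second (exact p = 0.0556, adjusted 0.278). SPF pools were higher in both sets, and no measure passed, with the smallest adjusted p over 8 pools at 0.886. This level includes the cells with 100 or more globin UMIs, which outside the lineage were all in pools 5 to 8. Without them CVT pool 6 stood above SPF pool 7, so the housing groups of that set overlapped.

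Genes with the most similar pattern were sought over 64 sums, each of a pool and a named class with at least 50 cells, by Pearson's r of log2(CPM + 1) with the mean of the 4 globins, among 9950 genes. Alas2 and Slc4a1 had r of 0.81 each. Both were chosen, as the globins were, for their difference between the pool sets, so a high r was built in and shows no likeness found here. The next included Cd79a, a B cell receptor subunit (0.64), Trim10 (0.62), Fam46c (0.62), Mbd2 (0.61), Ppp1r15b (0.61), March8 (0.59), Cltc (0.58), Eps15 (0.55) and Rfwd2 (0.55). Of the genes named here, Cd79a was highest in late granulocyte-like cells of pool 7, Rfwd2 in LTHSC-like cells of pool 7 and the rest in an erythroid-like sum. The sums share pools and depth, so the values are descriptions.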

How the data were processed

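The authors deposited 1 table of UMI counts, with 27998 genes and a column per cell, made with Cell Ranger against mm9 according to the submitters' processing notes. The values are whole counts and were not normalized. Coordinates are therefore given from GRCm38, where gene symbols were looked up, and are not those of the alignment. Each cell was placed in its pool by the number that ends its name, which matches the mouse number in the labels' descriptions. No label states that link in words. The replicate is the pool of 2 or 3 mice. The study's own text gives fewer mice per group than the labels do.

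Cells were clustered with scanpy 1.11.5 and leidenalg 0.10.2 (1000 variable genes, 30 components, 30 neighbours, resolution 2, 12 globin and member genes left out) and named where at least 3 fixed markers were among the specific genes. Counts were summed per pool and tested with edgeR 4.0.16 (TMM, filterByExpr, quasi-likelihood, Benjamini-Hochberg over all genes tested, adjusted p of 0.05), with housing and pool set as terms. DESeq2 1.42.0, RLE factors, no filter, other clusterings, a filter on cells and each pool left out were tried. Scripts were checked on simulated data. 

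The members and gene lists were chosen with earlier results of these data known. From each list up to 3 called genes of largest change were named, otherwise from among the 2 of highest level. Ahsp is not analysed here, and a few genes that the rule named are not reported here.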

Additional observations from a re-analysis of the deposited data

Results flagged for a closer look

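One value stood apart from the other pools of its group. In CVT pool 5, 75.0% of globin UMIs lay in erythroid-like cells, against 89.3% to 91.3% in the other CVT pools, a gap that was 0.875 of the group's whole range. The pool also had the largest part of its globin UMIs in cells outside the lineage, at 23.9%, of which 14.3 percentage points were in cells with 100 or more globin UMIs. Over the 76 groups of 4 pools examined this was the single such value, and chance gives it in about 5% of groups.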

How the results depend on the processing

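No call on a member in the housing comparison changed with normalization, tool, clustering, doublet removal or the pool set term, and calls appeared with no filter on low counts and, for Hba-a2 outside the lineage, without SPF pool 8. No paired analysis was possible because no pool number occurs in both housing groups. Depth limits Alas2 and Slc4a1, which had 53 and 74 UMIs in pools 1 to 4. The cause of each change below was not tested.

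Genes called for housing in KL cells numbered 4, and 115 with no filter, 140 by DESeq2 and 0 with no pool set term. In erythroid-like cells they numbered 0, 250 with no filter and 5 by DESeq2. Outside the lineage they numbered 4, 0 with RLE factors or no pool set term, 662 with no filter and 165 by DESeq2. For the pool sets, 51 in erythroid-like cells became 683 with no filter and 110 by DESeq2, and 1450 outside became 2744 with no filter. With 1 pool left out the housing counts ranged from 0 to 173, 0 to 368 and 0 to 61, each highest without SPF pool 8, and the pool set counts from 79 to 4543, 28 to 1649 and 23 to 3131.

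The mean share of erythroid-like cells, 33.6% and 25.4% in the 2 pool sets, was 20.4% and 14.5% at resolution 1, 23.7% and 16.9% with 50 components and 22.1% and 15.7% after doublet removal. That removal took out only 92 of 29891 cells, but the rest were clustered and named anew, into 31 clusters in place of 34. The share of globin UMIs in erythroid-like cells, 87.5% and 82.6%, was 67.3% and 30.4% without cells of 100 or more globin UMIs (an alternative chosen after seeing the data), and 62.8% in pools 5 to 8 after a filter on cells. Outside the lineage, 7.06 globin UMIs per 10000 in pools 5 to 8 became 9.47 after that filter, 2.91 without the rich cells and 23.5 when at least 2 UMIs of Car1, Ermap, Klf1 and Epor defined the lineage. Without thinning, the share of cells outside with a globin UMI was 22.7% and 88.5%, and CVT minus SPF was 1.51 points in place of -2.16 (exact permutation p = 0.8).

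With 1 pool left out CVT minus SPF ranged from -1.50 to 2.42 points for the erythroid-like share, 0.757 to 6.22 for globin UMIs in erythroid-like cells, -11.2 to 7.34 for the thinned share outside and -2.73 to 0.186 per 10000 UMIs outside. The members' housing log2 fold changes in KL cells ranged from -0.12 to 0.34 for Hbb-bs, -0.29 to 0.15 for Hbb-bt, -0.15 to 0.28 for Hba-a1, -0.49 to 0.11 for Hba-a2, -0.91 to -0.09 for Alas2 and -0.13 to 0.31 for Slc4a1. In erythroid-like cells they ranged from -0.24 to 0.33, -0.29 to 0.28, -0.29 to 0.24, -0.64 to 0.11, -1.26 to -0.14 and -0.34 to 0.28 in that order, and from -0.48 to -0.17, -0.65 to -0.38, -0.36 to -0.03, -0.65 to -0.34, -0.51 to -0.22 and 0.03 to 0.37 outside the lineage. The sign also turned for Hbb-bs in KL cells with no pool set term (-0.42), Hba-a1 there with RLE factors (0.0025) or DESeq2 (0.018), Hbb-bs in erythroid-like cells by DESeq2 (0.0044) and Slc4a1 there by DESeq2 (-0.010), with no pool set term (-0.051), at resolution 1 (-0.072) and after doublet removal (-0.085).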
